A study of Mus musculus with 9 samples.

Results

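Transcripts of 7 growth factor genes, Pdgfb, Pdgfc, Vegfa, Vegfb, Hbegf, Areg and Grn, were followed through phagocytes of the mouse peritoneal wall. The genes were chosen by symbol, as growth factors known from phagocytes and with earlier results of these data known. They are 7 of the 28764 gene rows in the table. The animals were an F1 cross heterozygous at 2 loci, Cx3cr1gfp/+ and Ccr2rfp/+, so every population came from mice with a green reporter at Cx3cr1 and a red reporter at Ccr2. All mice received 50 µg of dextran labelled with Cascade Blue into a vein the day before and were perfused. The peritoneal wall was digested with Liberase TL for 20 minutes, and CD11b-positive, Ly6G-negative cells were sorted into TRIzol. Double-negative cells (dextran-positive, negative for both reporters and for MHC class II) were 85 to 90% of that gate, and the labels call them the majority of the sessile resident macrophages. CCR2-RFP cells, at 10 to 15%, were MHC class II-positive, and the labels call them migratory tissue monocytes. CX3CR1-GFP cells, at 0.5 to 1.5%, were also MHC class II-positive and by their label sessile resident macrophages. Each population has 3 libraries, named here by their sort labels 1, 2A and 2B. The sources used here do not give the age or sex of the animals.

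Growth factors are secreted or shed proteins that bind receptors on neighbouring cells. PDGF-B and PDGF-C bind PDGF receptor tyrosine kinases on mesenchymal cells such as fibroblasts and pericytes. VEGF-A acts through VEGF receptors on endothelium to drive vessel growth, and VEGF-B binds the receptor FLT1. Amphiregulin (Areg) and heparin-binding EGF-like growth factor (Hbegf) are made as membrane precursors, cut free by the protease ADAM17, and bind the EGF receptor. Progranulin (Grn) is secreted or carried to the lysosome through sortilin or prosaposin, and is known for its part in lysosome function in macrophages and microglia.

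The values were TPM, transcript abundance per length scaled to a common total in each library, so levels can be set side by side between genes. The rows listed here summed to between 278579 and 382828 TPM per library, and a single row, Siglece, made up 21.9 to 34.7% of that sum. Between 8972 and 9534 genes reached 1 TPM in a library. TPM keeps no read counts, so the depth behind a value is unknown and precision is given by the spread over 3 libraries. Ccr2 was at 95.4, 111 and 115 TPM in the CCR2-RFP libraries and at most 6.68 TPM elsewhere. Cx3cr1 was at 6.51, 16.4 and 4.13 TPM in the CX3CR1-GFP libraries and listed at 0 in the other 6. Summed skeletal muscle markers stood apart in CX3CR1-GFP 2A (1383 TPM) and CCR2-RFP 2A (807 TPM), against 33.1 to 292 TPM in the other libraries. Macrophage markers summed to 1580 to 1715 TPM in double-negative, 537 to 605 TPM in CCR2-RFP and 1244 to 1399 TPM in CX3CR1-GFP libraries. The populations are bulk sorts, so fewer cells of a type and less RNA per cell cannot be told apart.

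Areg was highest in CCR2-RFP and Pdgfc in double-negative cells, and the 250 bases before their RefSeq start sites (GRCm38.p6, read 5′ to 3′ on the gene's strand) are shown for this reason. Capitals mark matches, on either strand, to any of 6 motifs that were searched: the cAMP response element TGACGTCA, the AP-1 site TGANTCA, the E-box CACGTG, the TATA box TATAAA, the GC box GGGCGG and the PU.1 core GAGGAA.
Areg, chr5:91139349-91139598, plus strand: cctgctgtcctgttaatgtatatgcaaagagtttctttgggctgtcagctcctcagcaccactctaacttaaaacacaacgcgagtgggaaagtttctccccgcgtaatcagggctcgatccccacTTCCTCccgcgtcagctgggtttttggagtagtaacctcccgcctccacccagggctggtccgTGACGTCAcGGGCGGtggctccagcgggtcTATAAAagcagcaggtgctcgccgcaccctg
Pdgfc, chr3:81036166-81036415, plus strand: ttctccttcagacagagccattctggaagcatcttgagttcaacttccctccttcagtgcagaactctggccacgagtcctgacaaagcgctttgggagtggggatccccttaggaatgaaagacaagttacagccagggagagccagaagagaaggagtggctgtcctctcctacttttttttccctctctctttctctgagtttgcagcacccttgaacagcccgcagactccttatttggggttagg
The Areg window held a cAMP response element 61 to 54 bases before the start, a GC box at 52 to 47 and a TATA box at 31 to 26. A PU.1 core lay on the other strand, 124 to 119 bases before the start. Of 32851 promoter windows of this length, 1.55% held the cAMP response element, 12.4% the TATA box, 32.7% the GC box and 23.3% the PU.1 core. The Pdgfc window held none of the 6 motifs. The AP-1 site was in 6.75% and the E-box in 6.02% of all windows. A match is a description of letters and does not show that a factor bound there.

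All of the 7 genes were listed, and 5 reached 1 TPM in at least 3 of the 9 libraries and were tested. Vegfa reached 1 TPM in 2 libraries and Hbegf in 1. Differences are log2 fold changes on log2(TPM + 1), which understates the change of low genes, and p-values are from limma, adjusted over all 10136 genes tested. They measure the spread between 3 sorted samples per population. CCR2-RFP cells had higher Areg and Pdgfb and lower Pdgfc and Grn than double-negative cells. These 4 members compare with 24.8% of all genes called in that contrast, 14.9% higher and 9.88% lower. CX3CR1-GFP cells had higher Pdgfb and lower Pdgfc than double-negative cells, 2 members, against 2.77% of all genes called, 1.16% higher and 1.61% lower. CX3CR1-GFP cells had higher Pdgfb and Vegfb and lower Areg than CCR2-RFP cells, 3 members, against 26.3% of all genes called, 8.96% higher and 17.3% lower. Each pair of contrasts shares the libraries of a population, so these are not independent counts. The members were chosen with earlier results of these data known, so setting them beside the shares of all genes is a description and not a test.

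**Figure D1:**
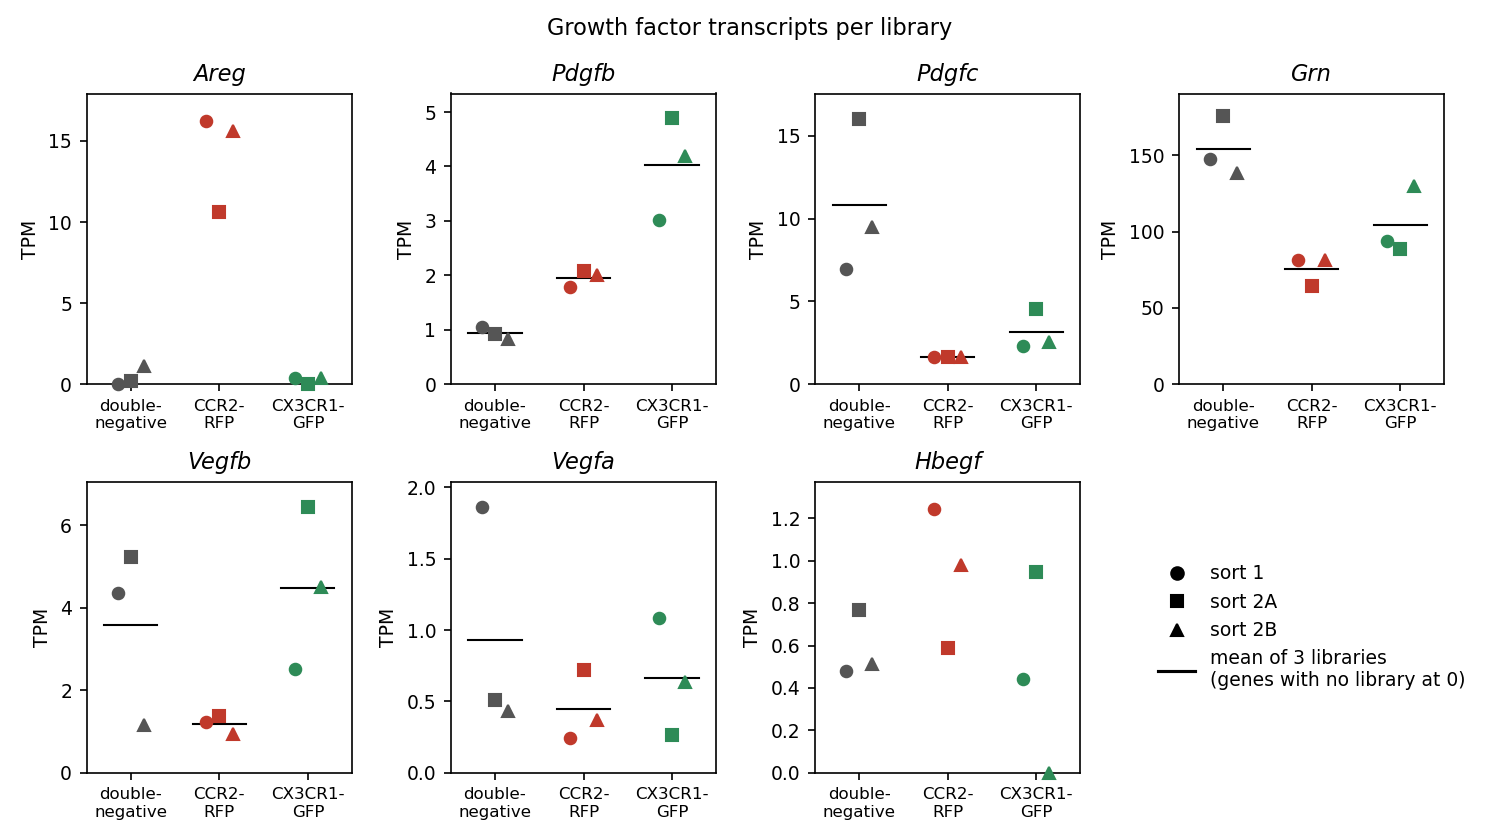
TPM of each growth factor gene (vertical axis, linear from 0, its own scale per panel) in each of the 9 libraries, by population. Points are libraries, their shape is the sort label, and bars are means of 3 libraries for genes with no library at 0. Areg was at 10.6 to 16.3 TPM in CCR2-RFP libraries and at most 1.15 TPM elsewhere, and Pdgfb was highest in CX3CR1-GFP and lowest in double-negative libraries.

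Among the ligands of the EGF receptor, Areg (chr5:91139599-91148432, plus strand) was a transcript of CCR2-RFP cells. It was at 16.3, 10.6 and 15.6 TPM in CCR2-RFP sorts 1, 2A and 2B. In double-negative cells it was listed at 0, 0.224 and 1.15 TPM, and in CX3CR1-GFP cells at 0.364, 0 and 0.366 TPM. The lowest CCR2-RFP library was thus above every library of the other populations, which overlapped each other. The log2 fold change was 3.44 (SE 0.305, 95% interval 2.76 to 4.11, adjusted p = 2.49e-05) against double-negative cells. From CCR2-RFP to CX3CR1-GFP cells it was -3.60 (95% interval -4.28 to -2.92, adjusted p = 2.53e-05). Between the sessile populations it was -0.17 (95% interval -0.85 to 0.51, adjusted p = 0.855), which leaves room for a difference either way. Areg passed the filter on low values through its CCR2-RFP libraries, with only double-negative 2B also above 1 TPM.

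Some markers of other cells that may be sorted with CCR2-RFP cells were, like Areg, highest in CCR2-RFP libraries, and others were not. Summed dendritic cell markers were at 137 to 157 TPM in CCR2-RFP libraries and 20.6 to 27.2 TPM elsewhere, and 7 of the 8 tested were higher than in double-negative cells. Summed markers of T cells, innate lymphoid cells and NK cells were at 17.5 to 26.8 TPM in CCR2-RFP, 11.3 to 16.7 TPM in CX3CR1-GFP and 5.41 to 9.37 TPM in double-negative libraries. Of this list's 9 genes, 5 were tested. Il1rl1, the IL-33 receptor, was at 12.3 to 17.5 TPM in CCR2-RFP libraries and exceeded both double-negative (adjusted p = 0.000687) and CX3CR1-GFP cells (adjusted p = 0.0314). Il7r, the IL-7 receptor, was at 2.17, 4.13 and 3.02 TPM in CCR2-RFP libraries and at most 0.527 TPM elsewhere, and exceeded both populations as well (adjusted p = 0.000118 and 0.000489). Cd3d, Nkg7 and Rora did not pass between CCR2-RFP and double-negative cells, and Rora was higher in CX3CR1-GFP than in CCR2-RFP cells (0.80, adjusted p = 0.0334). Cd3e, Cd3g, Gata3 and Ncr1 stayed too low to test. Summed mast cell and basophil markers were at 10.6, 33.8 and 6.47 TPM in CCR2-RFP sorts 1, 2A and 2B. The basophil protease Mcpt8 was listed at 0 everywhere. The part of these cells in the Areg level was not tested.

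Hbegf (chr18:36504927-36515805, minus strand) stayed near 1 TPM or below. It was at 0.481, 0.770 and 0.512 TPM in double-negative, 1.24, 0.589 and 0.982 TPM in CCR2-RFP, and 0.441, 0.949 and 0 TPM in CX3CR1-GFP sorts 1, 2A and 2B. The populations overlapped. Two-sided exact permutation tests gave p = 0.2 for CCR2-RFP against double-negative, 0.7 for CX3CR1-GFP against double-negative and 0.2 for CX3CR1-GFP against CCR2-RFP cells, where 0.1 is the smallest p that 3 against 3 libraries allow. These tests did not use the sort label. No difference was detectable at this level.

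Of the other 9 EGF family ligands, none passed the filter. The highest value of Btc (betacellulin) was 0.870 TPM and of Ereg (epiregulin) 0.838 TPM, both in CCR2-RFP libraries. Areg was therefore the only ligand of the 11 in this family tested under the filter. With no filter on low values, 10 were tested. In CCR2-RFP against double-negative cells that fit called 2 higher, Areg among them, and 0 lower. In CX3CR1-GFP against CCR2-RFP cells it called 0 higher and 1 lower. Nrg1 (neuregulin 1) was at 0.523, 0.628 and 0.223 TPM in CCR2-RFP sorts 1, 2A and 2B. Its highest value was 0.0266 TPM in double-negative and 0.152 TPM in CX3CR1-GFP libraries. The receptor list held 4 genes, of which Egfr, the receptor for amphiregulin, was tested. Egfr was at 18.4, 14.4 and 15.9 TPM in double-negative, 2.18, 1.76 and 2.97 TPM in CCR2-RFP and 10.8, 6.37 and 12.3 TPM in CX3CR1-GFP cells, with no overlap between populations. CCR2-RFP cells were below double-negative cells (log2 fold change -2.40, SE 0.245, adjusted p = 5.76e-05) and CX3CR1-GFP cells above CCR2-RFP cells (1.68, adjusted p = 0.000639). The difference of CX3CR1-GFP from double-negative cells was -0.71 (adjusted p = 0.188). Egfr and Areg thus differed in opposite directions between CCR2-RFP cells and each sessile population. Erbb2, Erbb3 and Erbb4 stayed under 1 TPM in all libraries.

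Release of EGF receptor ligands needs proteases, and the list of ligand processing genes held 15 tested genes of 18. Against double-negative cells, 5 rose in CCR2-RFP cells (Adam8, Adam10, Furin, Plaur, Cd9), 2 fell (Adam9, Rhbdf1) and 8 did not pass. Without CCR2-RFP 2A and CX3CR1-GFP 2A, the libraries highest in skeletal muscle markers, 3 rose and 2 fell, as without CCR2-RFP 2A alone. Without CCR2-RFP 2B 3 rose and 1 fell, and without double-negative 2A or CCR2-RFP 1 4 rose and 1 fell. The list's median log2 fold change was 0.11, beside 0.09 over all genes, of which 24.8% were called. Adam17, the main sheddase of amphiregulin, was at 7.95, 7.89 and 6.85 TPM in double-negative, 5.99, 8.80 and 7.06 TPM in CCR2-RFP and 8.48, 9.57 and 7.03 TPM in CX3CR1-GFP cells. These ranges overlapped, and adjusted p was 0.860 for CCR2-RFP against double-negative cells (95% interval of the log2 difference -0.47 to 0.35). Adam8, another membrane metalloprotease, was at 14.0, 14.4 and 13.3 TPM in CCR2-RFP and at most 0.867 TPM in the other libraries (3.36, adjusted p = 3.64e-06). Plaur, the urokinase receptor, was at 18.4, 19.9 and 27.9 TPM in CCR2-RFP and at most 2.66 TPM elsewhere (2.97, adjusted p = 4.96e-06). Furin, a proprotein convertase that cuts PDGF precursors, was at 12.9, 10.5 and 16.4 TPM in CCR2-RFP and 2.91 to 4.86 TPM elsewhere (1.55, adjusted p = 0.000329).

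In CX3CR1-GFP against CCR2-RFP cells, 3 genes of this list rose, 6 fell and 6 did not pass (median 0.18, beside -0.11 over all genes, of which 26.3% were called). Rescaling TPM without Siglece, ribosomal RNA, mitochondrial and ribosomal protein genes turned that split to 5 higher and 4 lower, and without the 2 libraries highest in skeletal muscle markers it was 0 higher and 3 lower. Without CCR2-RFP 1, 2A or 2B it was 0 and 5, 2 and 3, and 1 and 4, and without CX3CR1-GFP 2B 1 and 5. In CX3CR1-GFP against double-negative cells, Cd9 and Sdc4 rose and 13 did not pass (median 0.12, beside -0.03 over all genes, of which 2.77% were called). Neither passed without the 2 libraries highest in muscle markers, without any 1 of the double-negative libraries (adjusted p for Cd9 0.0594 to 0.145), or without CX3CR1-GFP 1, CX3CR1-GFP 2A or CCR2-RFP 1. Without CX3CR1-GFP 2B, CCR2-RFP 2A or CCR2-RFP 2B, 1 of them passed. Cd9, a tetraspanin that associates with the membrane form of HB-EGF, was at 2.59, 2.95 and 3.72 TPM in double-negative, 12.4, 14.5 and 9.98 TPM in CCR2-RFP and 6.65, 5.92 and 7.57 TPM in CX3CR1-GFP cells. Its levels did not overlap between populations, and CCR2-RFP exceeded double-negative cells (1.70, adjusted p = 0.000124).

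**Figure D2:**
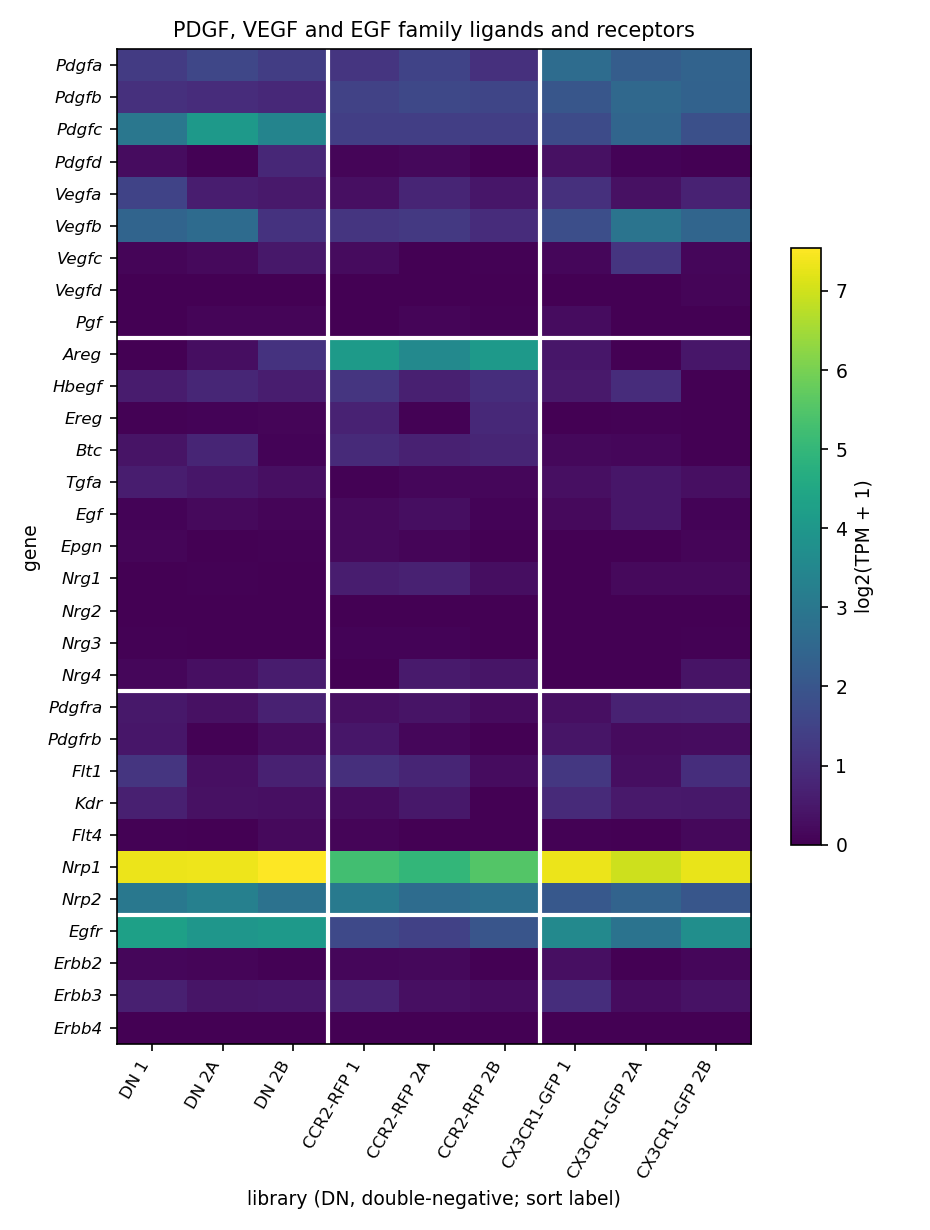
Heat map of log2(TPM + 1), dark for 0 and yellow for the highest, for PDGF and VEGF family ligands, EGF family ligands, PDGF and VEGF receptors with neuropilins, and ERBB receptors (blocks from top to bottom, separated by white lines), in the 9 libraries. Among ligands Areg in CCR2-RFP and Pdgfc in double-negative libraries stand out, and Nrp1 and Egfr are darker in CCR2-RFP than in the other libraries.

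Pdgfb (chr15:79995874-80014977, minus strand), which encodes the PDGF-B chain, was lowest in double-negative, intermediate in CCR2-RFP and highest in CX3CR1-GFP cells. It was at 1.06, 0.928 and 0.830 TPM in double-negative, 1.79, 2.09 and 2.01 TPM in CCR2-RFP, and 3.02, 4.88 and 4.19 TPM in CX3CR1-GFP sorts 1, 2A and 2B. The means were 0.939 ± 0.114, 1.96 ± 0.156 and 4.03 ± 0.944 TPM (SD, n = 3 libraries each), and no populations overlapped. CX3CR1-GFP exceeded double-negative cells by 1.36 (95% interval 0.91 to 1.80, adjusted p = 0.00562) and CCR2-RFP cells by 0.75 (95% interval 0.30 to 1.19, adjusted p = 0.0196). CCR2-RFP exceeded double-negative cells by 0.61 (SE 0.200, 95% interval 0.17 to 1.06, adjusted p = 0.0490).

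These calls differed in how firmly they stood. The rise in CX3CR1-GFP over double-negative cells passed in each alternative in which Pdgfb was tested (adjusted p 0.00338 to 0.0319). The step from CCR2-RFP to CX3CR1-GFP cells missed the threshold without CCR2-RFP 1 (adjusted p = 0.0656), CCR2-RFP 2B (0.0520), CX3CR1-GFP 2A (0.0533) or CX3CR1-GFP 2B (0.0527). The step from double-negative to CCR2-RFP cells missed it with the sort label as a block (adjusted p = 0.0705), without any double-negative or CCR2-RFP library (0.0886 to 0.127) and without CX3CR1-GFP 2B (0.0614). This call was also lost at a pseudocount of 5, with no filter, under median-of-ratios scaling and under the rescaling without Siglece. Both steps were lost at a minimum fold of 2 and without the 2 libraries highest in muscle markers. Of 20 alternatives, the step to CCR2-RFP cells passed in 6 and that from CCR2-RFP to CX3CR1-GFP cells in 14. PDGF-B is also known from endothelium and platelets. None of the 6 endothelial markers passed the filter, and their sum was between 0.838 and 5.79 TPM over the 9 libraries. Summed markers of platelets and megakaryocytes were at 508 to 622 TPM in double-negative, 57.3 to 111 TPM in CCR2-RFP and 326 to 453 TPM in CX3CR1-GFP libraries. Nearly all of each sum was Pf4, which macrophages also express. Of the 6 genes, Pf4 and Ppbp were tested, and both were higher in CX3CR1-GFP than in CCR2-RFP cells, the direction of Pdgfb. Pf4 was lower in CCR2-RFP cells against double-negative cells, opposite to Pdgfb, and neither gene passed between CX3CR1-GFP and double-negative cells. Gp9 was at 0 in every library, and the other 3 stayed too low to test. The part of platelets in the Pdgfb differences was not tested.

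Pdgfc (chr3:81036416-81214040, plus strand), which encodes the PDGF-C ligand, was highest in double-negative cells and above 1 TPM in every library. It was at 6.98, 16.0 and 9.50 TPM in double-negative, 1.62, 1.64 and 1.63 TPM in CCR2-RFP and 2.33, 4.52 and 2.57 TPM in CX3CR1-GFP sorts 1, 2A and 2B. The means were 10.8 ± 4.66, 1.63 ± 0.00965 and 3.14 ± 1.20 TPM (SD, n = 3 libraries each), and no populations overlapped. It was lower in CCR2-RFP cells, by a log2 fold change of -2.09 (SE 0.293, 95% interval -2.75 to -1.44, adjusted p = 0.000450) from double-negative cells. In CX3CR1-GFP against double-negative cells the change was -1.48 (95% interval -2.13 to -0.83, adjusted p = 0.0257). That call was lost without double-negative 2A (adjusted p = 0.0843), double-negative 2B (0.0852), CX3CR1-GFP 1 (0.0836) or CX3CR1-GFP 2B (0.0705). CX3CR1-GFP and CCR2-RFP cells differed by 0.62 (95% interval -0.04 to 1.27, adjusted p = 0.154), although their libraries did not overlap.

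Fibroblasts also make PDGF-C, and summed fibroblast markers were at 70.2, 10.3 and 108 TPM in double-negative, 41.7, 12.6 and 60.4 TPM in CCR2-RFP and 81.2, 39.3 and 125 TPM in CX3CR1-GFP libraries. The part of fibroblasts in the Pdgfc differences was not tested. A predicted antisense gene, Gm16000, shares 147 of the 5089 exon bases of Pdgfc in GENCODE M21, and the sources used here do not give the strand of counting.

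Of the 9 PDGF and VEGF family ligands in the table, 4 were tested: Pdgfa, Pdgfb, Pdgfc and Vegfb. The shares of all genes called were 24.8%, 2.77% and 26.3% in the 3 contrasts, in the order given here. Against double-negative cells, CCR2-RFP cells had 1 higher, 1 lower and 2 that did not pass (median -0.56), and CX3CR1-GFP cells had 2 higher, 1 lower and 1 that did not pass (median 0.67). Against CCR2-RFP cells, CX3CR1-GFP cells had 3 higher and 1 that did not pass (median 0.97). Pdgfa, the PDGF-A chain, was at 1.48, 2.06 and 1.59 TPM in double-negative, 1.25, 1.84 and 1.07 TPM in CCR2-RFP and 5.41, 3.67 and 4.32 TPM in CX3CR1-GFP cells. CX3CR1-GFP cells lay above both other populations, which overlapped. The log2 fold change was 1.20 over CCR2-RFP (adjusted p = 0.00224) and 1.01 over double-negative cells (adjusted p = 0.0352). The call over double-negative cells was lost without any 1 of the double-negative libraries (adjusted p 0.0785 to 0.145), without CCR2-RFP 1 (0.0601), and without CX3CR1-GFP 1 (0.107) or 2B (0.0738). It was also lost with the sort label as a block (0.0642) and with only the 2 populations compared (0.0644). A pseudocount of 0.1 (0.0514) and no filter on low values (0.0951) lost it too.

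Vegfb (chr19:6982473-6987651, minus strand) was low in CCR2-RFP cells and uneven among the libraries of the other populations. It was at 4.35, 5.23 and 1.15 TPM in double-negative, 1.22, 1.37 and 0.937 TPM in CCR2-RFP and 2.52, 6.44 and 4.50 TPM in CX3CR1-GFP sorts 1, 2A and 2B. The means were 3.58 ± 2.15, 1.18 ± 0.222 and 4.49 ± 1.96 TPM (SD, n = 3 libraries each). Double-negative 2B fell within the CCR2-RFP range, while no CX3CR1-GFP library did. CX3CR1-GFP exceeded CCR2-RFP cells by 1.27 (SE 0.400, 95% interval 0.38 to 2.16, adjusted p = 0.0395). CCR2-RFP and double-negative cells differed by -0.94 (95% interval -1.83 to -0.05, adjusted p = 0.123), and without double-negative 2B by -1.41 (adjusted p = 0.0119). CX3CR1-GFP and double-negative cells differed by 0.34 (95% interval -0.55 to 1.22, adjusted p = 0.757).

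The Vegfb call in CX3CR1-GFP over CCR2-RFP cells rested on few libraries and passed in 12 of the 20 alternatives in which Vegfb was tested. A pseudocount of 5 and the fit with no filter on low values each lost it. It was lost without CCR2-RFP 1 (adjusted p = 0.0878), 2A (0.0726) or 2B (0.113), and without CX3CR1-GFP 2A (0.116) or 2B (0.0887). For skeletal muscle markers and Vegfb alike, sort 2A was the highest in each of the 3 populations. The order of sorts 1 and 2B in these markers matched that of Vegfb in CCR2-RFP cells only. Without the 2 libraries highest in these markers, CX3CR1-GFP 2A and CCR2-RFP 2A, the difference was 1.08 (adjusted p = 0.152). Leaving out either of them alone, or a CCR2-RFP library lower in these markers, lost the call as well. The part of muscle in the Vegfb difference was not tested.

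Vegfa (chr17:46016993-46032369, minus strand), the main driver of vessel growth in the family, was at 1.86, 0.507 and 0.433 TPM in double-negative, 0.243, 0.720 and 0.372 TPM in CCR2-RFP and 1.08, 0.265 and 0.636 TPM in CX3CR1-GFP sorts 1, 2A and 2B. The highest values were both in sort 1, and the populations overlapped. Exact permutation tests gave p = 0.4 for CCR2-RFP against double-negative, 0.7 for CX3CR1-GFP against double-negative and 0.6 for CX3CR1-GFP against CCR2-RFP cells (two-sided, smallest possible p 0.1). With no filter on low values, limma's adjusted p over all 25666 rows above 0 was between 0.687 and 0.891 for Vegfa and between 0.444 and 0.871 for Hbegf.

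**Figure D3:**
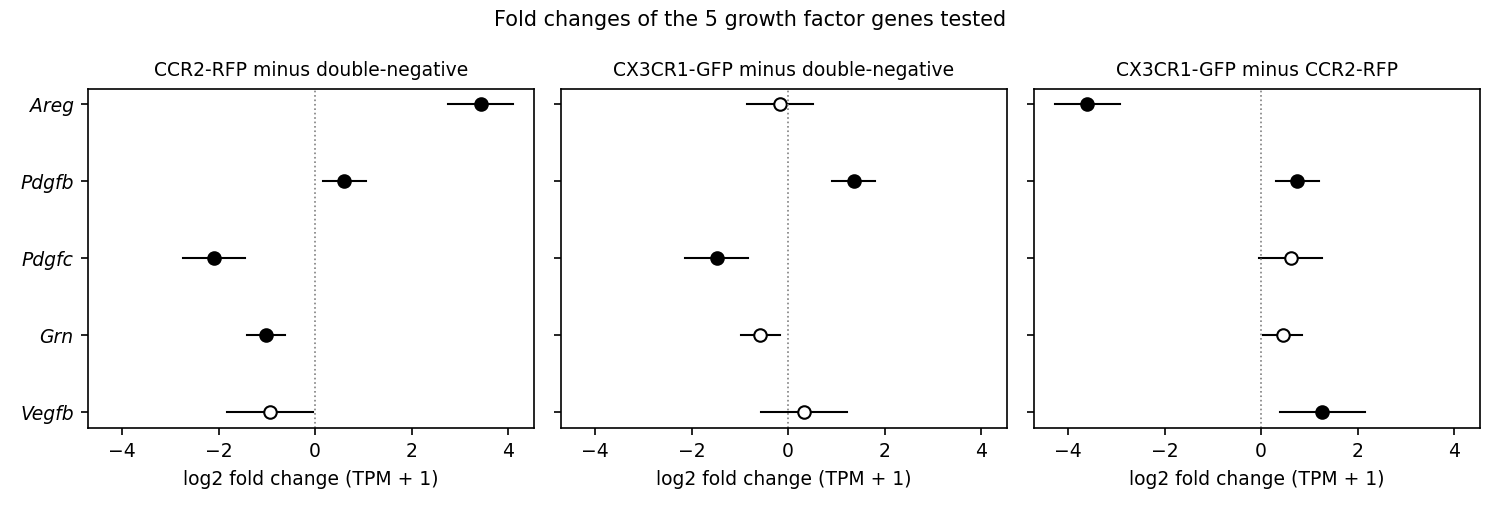
Log2 fold change on log2(TPM + 1) (horizontal axis) with its 95% interval for the 5 growth factor genes tested, in each contrast. Filled points passed at adjusted p below 0.05 and open points did not. Areg at 3.44 and -3.60 lies farthest from 0, and Pdgfb is on the higher side in all 3 panels.

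Receptors for PDGF were nearly absent from the phagocytes. Pdgfra and Pdgfrb did not exceed 0.670 and 0.365 TPM, and Kdr and Flt4, the VEGF receptors of blood and lymphatic endothelium, stayed under 1 TPM in all libraries. Of 7 receptor genes, Flt1, Nrp1 and Nrp2 were tested. Flt1 was at 0.198 to 1.33 TPM and passed in no contrast. Nrp1, neuropilin-1, a coreceptor for VEGF, was at 158, 164 and 185 TPM in double-negative, 37.1, 31.0 and 44.7 TPM in CCR2-RFP and 160, 123 and 155 TPM in CX3CR1-GFP cells. It fell from double-negative to CCR2-RFP cells (-2.15, SE 0.166, adjusted p = 1.15e-05) and was higher in CX3CR1-GFP cells than in the latter (1.94, adjusted p = 2.65e-05). Nrp2 differed between CX3CR1-GFP (3.25, 4.24 and 3.09 TPM) and CCR2-RFP cells (7.53, 5.34 and 5.93 TPM) by -0.68 (adjusted p = 0.0311). That call was lost under rescaling without Siglece and the other rows named above (adjusted p = 0.155). It was also lost without CCR2-RFP 1 (0.112) or 2B (0.0676) and without CX3CR1-GFP 1 (0.0805) or 2B (0.0843). The median over the 3 tested receptors was -0.19 in CCR2-RFP and -0.22 in CX3CR1-GFP against double-negative cells, and 0.15 in CX3CR1-GFP against CCR2-RFP cells.

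Grn (chr11:102430315-102437048, plus strand) was by far the most abundant of the 7, 236th of the 28764 rows by mean TPM. It was at 147, 176 and 139 TPM in double-negative, 81.2, 64.1 and 81.2 TPM in CCR2-RFP and 93.6, 88.8 and 130 TPM in CX3CR1-GFP sorts 1, 2A and 2B. The means were 154 ± 19.4, 75.5 ± 9.86 and 104 ± 22.4 TPM (SD, n = 3 libraries each), with no overlap between populations. CCR2-RFP cells were below double-negative cells by a log2 fold change of -1.02 (SE 0.179, 95% interval -1.42 to -0.62, adjusted p = 0.00195). CX3CR1-GFP cells lay between, at -0.57 from double-negative (95% interval -0.97 to -0.18, adjusted p = 0.143) and 0.45 from CCR2-RFP cells (95% interval 0.05 to 0.84, adjusted p = 0.0951). The difference from CCR2-RFP cells passed after rescaling without Siglece and the other rows named above (0.76, adjusted p = 0.0141) and after quantile normalization (0.82, adjusted p = 0.0205). Of 10 macrophage markers, 9 fell from double-negative to CCR2-RFP cells, as Grn did, and Cd68 did not pass (9.88% of all genes fell). In CX3CR1-GFP against double-negative cells C1qb and C1qc fell and 8 did not pass (1.61% of all genes fell). In CX3CR1-GFP against CCR2-RFP cells, where Grn did not pass, 9 rose (8.96% of all genes rose). The part of macrophage content in the Grn difference was not tested. Fam171a2 shares 68 of the 3474 exon bases of Grn on the other strand and was listed at no more than 0.0954 TPM.

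Progranulin's partners did not move as a block. Of 19 genes for its carriers, receptors, proteases and neighbouring lysosomal enzymes, 14 were tested. Their counts stand beside 24.8%, 2.77% and 26.3% of all genes called in the 3 contrasts, in the order given here. In CCR2-RFP against double-negative cells 1 rose (Psap), 3 fell (Ctsl, Ctsb, Hexa) and 10 did not pass (median -0.06). In CX3CR1-GFP against double-negative cells Tnfrsf1a, Ctsl and Ctsb fell and 10 did not pass (median -0.32). Without double-negative 1 none of them passed, and without double-negative 2A, double-negative 2B or CX3CR1-GFP 2A 1 fell. In CX3CR1-GFP against CCR2-RFP cells Ctsl and Ctsb rose, Psap and Tnfrsf1a fell and 9 did not pass (median -0.06), and 1 fell without any 1 of double-negative 1, CCR2-RFP 1 or 2B and CX3CR1-GFP 1 or 2A.

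Psap, whose product prosaposin can carry progranulin to the lysosome, was at 223, 226 and 199 TPM in double-negative, 414, 428 and 449 TPM in CCR2-RFP and 182, 193 and 189 TPM in CX3CR1-GFP cells. CCR2-RFP cells, lower in Grn, exceeded double-negative cells in Psap by 0.99 (adjusted p = 0.000131). Sort1, the sortilin receptor, was at 0.295 to 4.62 TPM and passed in no contrast. Ctsb, the lysosomal protease cathepsin B, was at 565, 532 and 583 TPM in double-negative, 161, 132 and 188 TPM in CCR2-RFP and 282, 298 and 321 TPM in CX3CR1-GFP cells. Its order was that of Grn, with a change of -1.81 from double-negative to CCR2-RFP cells (adjusted p = 1.55e-05). From double-negative to CX3CR1-GFP cells the change was -0.90 (adjusted p = 0.0102), a call lost without double-negative 1 (0.0501). Ctsl, cathepsin L, which can cut progranulin into granulins, was at 48.1, 41.2 and 61.3 TPM in double-negative, 8.79, 4.83 and 11.0 TPM in CCR2-RFP and 21.4, 16.8 and 20.0 TPM in CX3CR1-GFP cells (-2.52 for CCR2-RFP against double-negative, adjusted p = 6.14e-05). Its call in CX3CR1-GFP against double-negative cells was lost without any 1 of those 6 libraries (adjusted p 0.0563 to 0.119).

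Set side by side per length, Grn was above the other 6 genes in every library, and the order below it differed between populations. In double-negative cells Pdgfc, at 6.98 to 16.0 TPM, stood above Vegfb, at 1.15 to 5.23 TPM, with no overlap, and Pdgfb was at 0.830 to 1.06 TPM. In CCR2-RFP cells Areg came next, then Pdgfb (1.79 to 2.09 TPM), Pdgfc (1.62 to 1.64 TPM) and Vegfb (0.937 to 1.37 TPM), none overlapping its neighbour. In CX3CR1-GFP cells Vegfb (2.52 to 6.44 TPM), Pdgfb (3.02 to 4.88 TPM) and Pdgfc (2.33 to 4.52 TPM) overlapped and could not be ordered. Across the 9 libraries Pdgfc and Grn had a Pearson r of 0.858 on log2(TPM + 1), Areg and Vegfb of -0.827 and Areg and Grn of -0.704. These describe 9 points from 3 populations that share animals and scaling.

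Other growth factor genes differed in both directions between the populations. Of 34 listed, 12 were tested, beside 24.8%, 2.77% and 26.3% of all genes called in the 3 contrasts, in the order given here. In CCR2-RFP against double-negative cells 1 rose (Metrnl), 5 fell (Igf1, Bmp2, Gdf15, Gas6, Kitl) and 6 did not pass (median -0.43). In CX3CR1-GFP against double-negative cells Gdf15 fell and 11 did not pass (median -0.29). No gene of the list passed there without double-negative 1 or 2A or CX3CR1-GFP 1 or 2A, without the 2 libraries highest in muscle markers, at a pseudocount of 0.1, with no filter or with the filter of 5 TPM. Gas6 passed without CCR2-RFP 1 (adjusted p = 0.0461), Igf1 without CCR2-RFP 2A (0.0297), and both with only the 2 populations compared (0.0312 and 0.0356). In CX3CR1-GFP against CCR2-RFP cells 5 rose (Igf1, Hgf, Bmp2, Gas6, Kitl), 2 fell (Metrnl, Hdgf) and 5 did not pass (median -0.11). Igf1, insulin-like growth factor 1, was at 56.4, 62.1 and 59.5 TPM in double-negative, 16.0, 4.80 and 12.4 TPM in CCR2-RFP and 37.4, 29.3 and 34.5 TPM in CX3CR1-GFP cells (-2.46 for CCR2-RFP against double-negative, adjusted p = 0.000323). Gas6, a ligand of TAM receptors that bridges to dying cells, was at 66.5, 66.8 and 59.5 TPM, 11.8, 4.71 and 7.13 TPM, and 39.8, 31.0 and 35.6 TPM in the same order (-2.95, adjusted p = 2.09e-05).

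Bmp2, a bone morphogenetic protein, was at 9.08, 10.1 and 6.79 TPM in double-negative, 1.26, 1.06 and 0.246 TPM in CCR2-RFP and 7.33, 11.0 and 6.38 TPM in CX3CR1-GFP cells (-2.41 for CCR2-RFP against double-negative, adjusted p = 0.000137). Metrnl, a secreted meteorin-like protein, was at 18.2, 13.5 and 16.4 TPM in double-negative, 40.2, 38.6 and 40.9 TPM in CCR2-RFP and 19.8, 17.5 and 20.0 TPM in CX3CR1-GFP cells (1.27, adjusted p = 0.000137). Like Areg, Metrnl was above every other library in the CCR2-RFP libraries, while Igf1, Gas6 and Bmp2 were below every other library in them.

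Hypoxia response genes were listed because low oxygen is a known inducer of Vegfa. Of 20, 17 were tested, beside 24.8%, 2.77% and 26.3% of all genes called in the 3 contrasts, in the order given here. In CCR2-RFP against double-negative cells 6 rose (Hif1a, Egln1, Slc2a1, Ankrd37, Pgk1, Ldha), Pfkfb3 fell and 10 did not pass (median 0.22). Without CCR2-RFP 2A or without CCR2-RFP 2B, 3 rose in place of 6. In CX3CR1-GFP against double-negative cells limma called none of 17 (median -0.02), with 4 at an unadjusted p below 0.05, and 2 rose without CX3CR1-GFP 2B. In CX3CR1-GFP against CCR2-RFP cells Pfkfb3 rose, 5 fell (Hif1a, Egln1, Ankrd37, Pgk1, Ldha) and 11 did not pass (median -0.31). Without CCR2-RFP 2A 2 fell, and without CCR2-RFP 1, CCR2-RFP 2B or CX3CR1-GFP 1 3 fell. The call of Pfkfb3 there was lost without any 1 of the CCR2-RFP libraries (adjusted p 0.0546 to 0.0882) and without CX3CR1-GFP 1 (0.0909) or 2B (0.0823). Hif1a, the oxygen-sensitive transcription factor subunit, was at 27.6 to 33.4 TPM in CCR2-RFP cells and 6.74 to 14.2 TPM elsewhere (1.47 over double-negative, adjusted p = 0.00136). Pgk1, a glycolytic enzyme, was at 17.0, 15.2 and 19.2 TPM in CCR2-RFP cells and at most 7.41 TPM elsewhere (1.38, adjusted p = 0.000323). Ankrd37, a HIF target, was at 4.79, 3.64 and 3.59 TPM in CCR2-RFP cells and 0 to 0.353 TPM elsewhere (2.15, adjusted p = 4.20e-05). Pfkfb3, a glycolytic regulator, was at 33.3, 14.3 and 25.5 TPM in double-negative cells and 6.23, 6.41 and 7.79 TPM in CCR2-RFP cells (-1.63, adjusted p = 0.00179). Vegfa itself was at 0.243 to 0.720 TPM in CCR2-RFP libraries.

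Immediate-early genes, which respond within minutes to growth factor and stress signals, split within the list. Of 22, 21 were tested, beside 24.8%, 26.3% and 2.77% of all genes called in the 3 contrasts, in the order given here. In CCR2-RFP against double-negative cells 5 rose (Fosl2, Egr2, Nr4a1, Nr4a2, Dusp2), 5 fell (Fosb, Jun, Egr1, Ier3, Klf4) and 11 did not pass (median -0.08). In CX3CR1-GFP against CCR2-RFP cells 5 rose (Fos, Fosb, Jun, Egr1, Ier3), 5 fell (Fosl2, Egr2, Nr4a1, Nr4a2, Dusp2) and 11 did not pass (median 0.36). Without CCR2-RFP 2B 4 rose and 3 fell. Rescaling without Siglece and the other rows gave 5 higher and 8 lower in the former contrast and 11 higher and 3 lower in the latter, and quantile normalization 5 and 8, and 13 and 3. Between CX3CR1-GFP and double-negative cells limma called none of the 21 (median 0.28), with 5 at an unadjusted p below 0.05. Jun was at 291, 239 and 205 TPM in double-negative, 109, 82.4 and 92.7 TPM in CCR2-RFP and 313, 289 and 231 TPM in CX3CR1-GFP cells (-1.36 for CCR2-RFP against double-negative, adjusted p = 0.000292). Fosl2, another AP-1 subunit, was at 21.7, 25.2 and 30.9 TPM in CCR2-RFP cells and 6.15 to 9.37 TPM elsewhere (1.69, adjusted p = 7.18e-05). Nr4a2, an orphan nuclear receptor, was at 6.26, 7.01 and 7.64 TPM in CCR2-RFP cells and 0.754 to 3.44 TPM elsewhere (1.96, adjusted p = 0.000211). Ier3, a stress-induced survival gene, was at 57.2, 39.0 and 44.3 TPM in double-negative cells and 18.2, 12.2 and 14.4 TPM in CCR2-RFP cells (-1.58, adjusted p = 0.000455).

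Genes induced by ERK signalling, many of which feed back on receptor tyrosine kinases, formed another list. Of 12, 7 were tested, beside 24.8% of all genes called in CCR2-RFP and 2.77% in CX3CR1-GFP against double-negative cells, and 26.3% in CX3CR1-GFP against CCR2-RFP cells. In CCR2-RFP against double-negative cells Phlda1 rose, 3 fell (Dusp6, Spred1, Etv5) and 3 did not pass (median -0.79). In CX3CR1-GFP against CCR2-RFP cells 5 rose (Dusp6, Spry2, Spred1, Spred2, Etv5), Phlda1 fell and 1 did not pass (median 1.15), and 3 rose without any 1 of CCR2-RFP 2A or 2B, CX3CR1-GFP 2A or 2B and double-negative 1. In CX3CR1-GFP against double-negative cells limma called none of 7 (median 0.18), with 1 at an unadjusted p below 0.05. Dusp6, an ERK phosphatase, was at 29.8, 24.3 and 25.6 TPM in double-negative, 7.95, 4.77 and 6.84 TPM in CCR2-RFP and 33.5, 32.8 and 25.2 TPM in CX3CR1-GFP cells (-1.89 for CCR2-RFP against double-negative, adjusted p = 6.45e-05). Spred1, an inhibitor of RAS signalling, was at 55.1, 65.6 and 54.1 TPM in double-negative, 19.5, 28.6 and 30.6 TPM in CCR2-RFP and 60.4, 64.5 and 50.5 TPM in CX3CR1-GFP cells (-1.14, adjusted p = 0.00128). Etv5, an ETS transcription factor, was at 12.9, 10.8 and 4.66 TPM in double-negative cells and 2.56, 0.969 and 3.52 TPM in CCR2-RFP cells (-1.63, adjusted p = 0.00838). Phlda1 was at 20.0, 24.7 and 14.9 TPM in CCR2-RFP and 0.920 to 1.90 TPM in double-negative cells (3.02, adjusted p = 0.000211).

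**Figure D4:**
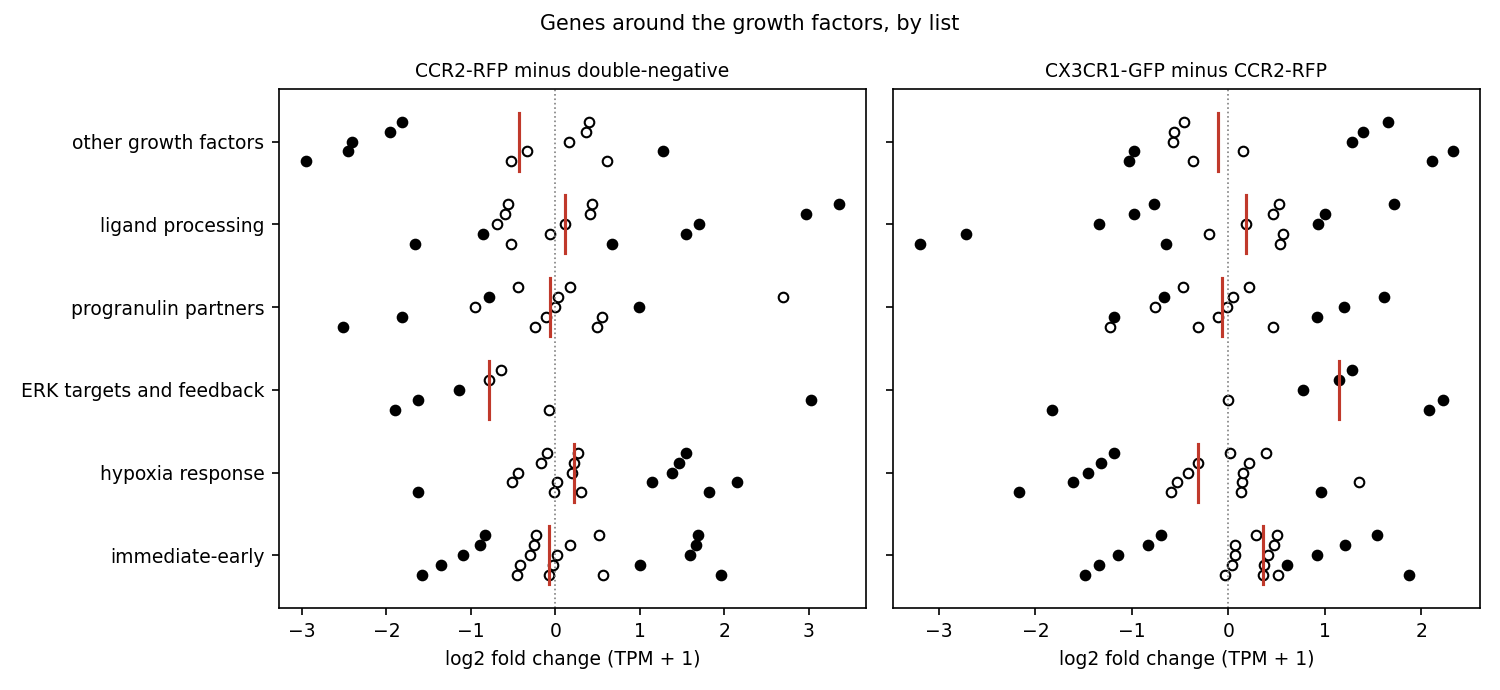
Log2 fold change on log2(TPM + 1) (horizontal axis) of each tested gene in 6 lists (rows), for CCR2-RFP minus double-negative (left) and CX3CR1-GFP minus CCR2-RFP (right). Filled points passed at adjusted p below 0.05, open points did not, and red bars are list medians. Most lists hold genes on both sides of 0. The median of ERK targets and feedback genes is -0.79 in the left panel and 1.15 in the right. Both panels share the CCR2-RFP libraries, with opposite sign, so they are not independent.

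The genes most alike in pattern were those with the highest Pearson r of log2(TPM + 1) over the 9 libraries, among genes with a mean of at least 10 TPM. For Areg they were Hopx (r = 0.994) and Myl6 (0.992), out of 2324 compared. Hopx was at 42.3, 36.6 and 46.1 TPM in CCR2-RFP cells and at most 1.96 TPM elsewhere. For Pdgfb they were Ifrd1 (0.941) and Skil (0.920), and Skil was at 10.8, 16.5 and 10.6 TPM in double-negative, 29.3, 44.4 and 26.5 TPM in CCR2-RFP and 53.0, 69.6 and 44.7 TPM in CX3CR1-GFP cells. For Pdgfc they were Ifi203 (0.947) and Hexa (0.944), for Vegfb Abl1 (0.960) and Arrb2 (0.929), and for Grn Mtss1 (0.965) and Tial1 (0.961). Arrb2 was lowest in CCR2-RFP cells, at 10.6 to 11.6 TPM, and Mtss1, at 55.4 to 69.1 TPM, was highest in double-negative cells. These r values were picked as the highest over many genes and describe likeness over 9 libraries only.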

How the data were processed

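RNA of 9 sorted mouse samples was sequenced as paired reads of 75 bases from libraries made with 1 ng of RNA. The authors deposited TPM per gene symbol, 1 column per library. The submitters' processing notes name bcl2fastq 2.18, cutadapt 1.8.3, Salmon 0.11.3 and build mm10. The sources used here do not give the annotation, strand or summing of transcripts. Samples were grouped by their titles, with which column heading, source name and cell type agree. The description field names the other reporter-positive population for 6 samples and was not used. The series design gives 3 mice carried through as 3 replicates, so libraries with the same sort label were read as 1 animal, and the sort label as a block was an alternative. Deviations from population means correlated between same-sort libraries of different populations at r = 0.0315 to 0.205. Between libraries of different sorts and populations r was -0.160 to 0.112, so the ranges overlapped.

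log2(TPM + 1) was fitted in R 4.3.3 with limma 3.58.1 (lmFit, eBayes with trend) on all 9 libraries. The 10136 genes reaching 1 TPM in 3 or more libraries were tested, two-sided, with Benjamini-Hochberg adjustment over all of them, and called at adjusted p below 0.05. The procedure was checked on simulated data. Single genes below the filter had exact permutation tests, which shuffled libraries between the populations and did not pair them by sort label. Coordinates are from GENCODE M21 (GRCm38), 1-based, and promoters from RefSeq, which matched 5 of the 7 members.

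The members and gene lists were chosen with earlier results of these data known. The naming rule took all members, up to 4 called genes per list with the smallest F test p, receptors with their level, and for each tested member the 2 genes most alike in pattern, leaving out predicted, ribosomal protein and small RNA genes. A gene that the rule named is not reported here. Genes named only inside a list's counts, and Adam17, Sort1, Cd68 and the markers of other cells, stand outside it and were chosen after values were seen. Alternatives were pseudocounts of 0.1 and 5, no filter, a filter of 5 TPM, 3 other scalings, the block, no intensity trend, a minimum fold of 2, only the 2 populations compared, each library left out, and, added after seeing the data, the 2 libraries highest in skeletal muscle markers left out.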

Additional observations from a re-analysis of the deposited data

How the results depend on the processing

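No called value of a member changed direction in any alternative. Between CX3CR1-GFP and double-negative cells, where neither gene was called, leaving out double-negative 2B turned Areg from -0.17 to 0.15 and Vegfb from 0.34 to -0.14. The 4 members called in CCR2-RFP against double-negative cells were 3 or 4 in each alternative, and 3 to 4 with each library left out. Pdgfb was among them in only 6 of the 20 alternatives in which it was tested. Without double-negative 2B, Vegfb passed in its place. The 2 called in CX3CR1-GFP against double-negative cells fell to 1 with no filter on low values (Pdgfc lost), to 1 with the filter of 5 TPM, which removed Pdgfb from the test, and to 1 with only the 2 populations compared (Pdgfc lost); with each library left out they were 1 to 2. The 3 called in CX3CR1-GFP against CCR2-RFP cells fell to 1 with the filter of 5 TPM, which removed Pdgfb and Vegfb, to 1 without the 2 libraries highest in skeletal muscle markers (chosen after seeing the data), and to 1 to 3 with each library left out. With the sort label as a block the counts were 3, 2 and 3, the only member call lost being Pdgfb in CCR2-RFP against double-negative cells (adjusted p = 0.0705). The calls of Areg, Grn and Pdgfc in CCR2-RFP against double-negative cells held in all 21 alternatives (adjusted p 8.62e-06 to 0.00160, 0.000792 to 0.0107 and 0.000339 to 0.00278). Over all genes, 281 were called between CX3CR1-GFP and double-negative cells, and 146 with no filter and 126 to 259 with each library left out. A minimum fold of 2 left 1463, 208 and 1514 genes called. The share of higher among called genes was 60.2%, 42.0% and 34.1% in the 3 contrasts; it was 43.9%, 55.3% and 60.1% after rescaling without Siglece, ribosomal RNA, mitochondrial and ribosomal protein genes, and 49.4%, 50.9% and 48.9% after quantile normalization. That rescaling moved the median log2 fold change of all genes from 0.09 to -0.08 in CCR2-RFP against double-negative and from -0.11 to 0.13 in CX3CR1-GFP against CCR2-RFP cells. Why values moved with a setting was not tested, other than where a filter removed a gene. TPM gives no depth, so how far depth limits Vegfa and Hbegf is unknown.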
